A study of Mus musculus with 15 samples.

Results

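Lysosome genes were followed in RNA-seq of adult neural stem cells (aNSCs), dividing cells of the subventricular zone grown in suspension from 2-month-old mice. The set holds 39 genes of the 53801 in the count table and was chosen by name and role. It covers 8 cathepsins and other proteases, 9 glycosidases, 5 lipid hydrolases and saposins, 7 membrane proteins and channels, the secreted granulin precursor Grn with Gpnmb, 4 subunits of the proton pump, the autophagy receptor Sqstm1, and the MiT/TFE transcription factors Tfeb, Tfe3 and Mitf. All 15 cultures came from mice of strain C57BL6/J-129sv with the Rosa26-CreERT2 transgene, which expresses a recombinase that 4-hydroxytamoxifen (4-OHT) switches on. 5 cultures were Trrap Fl/+ and untreated, 5 were Trrap Fl/+ and given 4-OHT, and 5 were Trrap Fl/Fl and given 4-OHT. The labels put the treatment at 5 days, whereas the study's methods describe a shorter exposure followed by fresh medium. The treated Fl/+ cultures can therefore lose 1 copy of Trrap and the treated Fl/Fl cultures both, and an untreated Fl/Fl group was not analysed here. By their labels, 3 mice of each group were male and 2 female. Both Fl/+ groups came from mice 19, 24, 26, 35 and 36, and the Fl/Fl cultures from mice 27, 28, 29, 37 and 39.

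Lysosomes are acidic organelles in which proteins, glycans and lipids delivered by endocytosis or autophagy are broken down. The proton pump, a V-type ATPase, keeps the interior acidic, soluble hydrolases reach the organelle through mannose 6-phosphate receptors, and membrane glycoproteins such as Lamp1 line it. Tfeb, Tfe3 and Mitf are transcription factors that bind the CLEAR element, an extended E-box found at many lysosomal genes. In the adult subventricular zone, lysosomes are known for clearing protein aggregates from quiescent stem cells. Trrap is a scaffold protein of several histone acetyltransferase complexes.

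The libraries held 25720034 to 32187097 assigned counts. Levels are given as CPM, counts scaled to one common library size after TMM correction, and fold changes on the log2 scale with their standard error (SE) from edgeR's quasi-likelihood test, where an adjusted p under 0.05 is called a change. Neural stem cell markers were abundant, at a summed 5883 to 10471 CPM over 10 genes in every library. Trrap, counted over all its exons, stood at 193, 214, 184, 179 and 181 CPM in the untreated Fl/+ cultures of mice 19, 24, 26, 35 and 36, at 138, 204, 171, 165 and 142 CPM after 4-OHT, and at 92.9, 115, 142, 89.2 and 82.8 CPM in the Fl/Fl cultures of mice 27, 28, 29, 37 and 39. Its level fell by 0.64 ± 0.16 (SE) in the Fl/Fl cultures against the treated Fl/+ ones (adjusted p = 0.0115), but the library labelled Fl/Fl 29 lay inside the range of the treated Fl/+ libraries. Sex-linked genes went against the label in the library labelled Fl/Fl 39, labelled female, with 0.313 CPM of Xist and 54.0 CPM of the Y-linked Ddx3y. Mouse 36, labelled male, held Xist beside Ddx3y, at 5.89 CPM of Xist untreated and 74.7 CPM after 4-OHT. The library of Fl/Fl mouse 37 had the highest value of its group for 30 of the 39 lysosome genes, and that of Fl/Fl mouse 27 the lowest for 28. Counts of called genes are therefore also given without the libraries in doubt, which are those labelled Fl/Fl 29 and Fl/Fl 39 and those of mouse 36.

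Of the 39 genes, 35 had an entry among RefSeq promoters of GRCm38.p6, which span 250 bases before and 50 after a transcription start. Ctsb, Ctsh, Asah1 and Atp6v1h had none. The core of the CLEAR element, TCACGTGA, reads the same on both strands and always contains the E-box core CACGTG. It was present in a window of 7 of the 35 genes (20%), against 1.12% of the 27025 genes with a promoter in the table. Over single windows the share was 16.3% of 43 against 0.974% of 32851. CACGTG, with or without the longer core, was found for 13 of the 35 genes (37.1%) against 8.09% of all genes, and for 30.2% of the members' windows against 7.15% of all windows. A match describes the letters in these windows and is not a measured binding site. The 7 stretches are shown because the 3 regulators in the set are known to bind this element. They run 5′ to 3′ on the gene's strand, with each TCACGTGA in capitals and coordinates of GRCm38.p6.
Ctsa, chr2:164833714-164833784, plus strand: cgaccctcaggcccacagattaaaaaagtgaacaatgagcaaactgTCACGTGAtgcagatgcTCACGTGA
Ctsd, chr7:142387873-142387972, minus strand: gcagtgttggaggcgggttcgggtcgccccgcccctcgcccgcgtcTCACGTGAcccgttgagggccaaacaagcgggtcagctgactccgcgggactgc
Gla, chrX:134601147-134601255, minus strand: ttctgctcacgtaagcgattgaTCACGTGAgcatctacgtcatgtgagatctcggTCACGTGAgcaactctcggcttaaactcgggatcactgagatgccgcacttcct
Cln3, chr7:126583305-126583404, minus strand: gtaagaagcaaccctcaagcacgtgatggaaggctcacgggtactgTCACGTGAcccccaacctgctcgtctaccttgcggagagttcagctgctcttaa
Mcoln1, chr8:3500427-3500526, plus strand: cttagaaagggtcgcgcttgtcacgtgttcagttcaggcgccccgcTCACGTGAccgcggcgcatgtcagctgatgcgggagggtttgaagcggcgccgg
Atp6v0d1, chr8:105566053-105566114, minus strand: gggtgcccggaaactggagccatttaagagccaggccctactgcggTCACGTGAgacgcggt
Atp6v1a, chr16:44139338-44139437, minus strand: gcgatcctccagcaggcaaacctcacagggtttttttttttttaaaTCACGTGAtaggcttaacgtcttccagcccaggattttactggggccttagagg
The 7 genes stand for different parts of the organelle. Ctsa and Ctsd are proteases, Gla is a glycosidase, Cln3 and Mcoln1 are membrane proteins, and Atp6v0d1 and Atp6v1a are pump subunits. The first base of the core lay 13 bases before a start of Ctsa, and another copy began at position 5, counting the start base as 1. It lay 122 bases before a start of Cln3. Ctsa and Cln3 have 2 windows each, and the core lay in a single one, whose start is inside the annotated gene. The core lay 99 bases before the start of Ctsd, 46 for Mcoln1, 4 for Atp6v0d1 and 132 for Atp6v1a. Gla carried the core 228 and 195 bases before its start. Gaa, Glb1, Naglu, Ctsf, Ctsl and Lamp1 held CACGTG without the longer core, and Lamp1 held it at 4 positions.

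Levels of different genes were compared per kilobase of exon, as CPM per kb. In untreated cultures they ranged from 0.0143 CPM per kb for Gpnmb, a membrane glycoprotein of melanosomes and phagocytes, to 527 ± 51.8 (SD, n = 5) for Psap, the precursor of the saposins that present sphingolipids to hydrolases. Lamp1, the main glycoprotein of the lysosomal membrane, followed at 422 CPM per kb, and Ctsd, the aspartyl protease cathepsin D, at 154 CPM per kb. The pump subunit Atp6v0d1 (109 CPM per kb) and the cysteine protease Ctsb (97.7 CPM per kb) came next, and the spread of their libraries overlapped. The 3 regulators lay low, at 8.64 CPM per kb for Tfe3, 3.22 for Tfeb and 0.599 for Mitf. Cd68, a lysosomal membrane protein abundant in macrophages, stood at 1.55 CPM per kb. Exons of Ctsd overlap those of another gene on the same strand over 34.4% of their length, those of Ctsl over 6.09% and those of Glb1 over 5.49%, where reads cannot be assigned to a single gene.

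**Figure D1:**
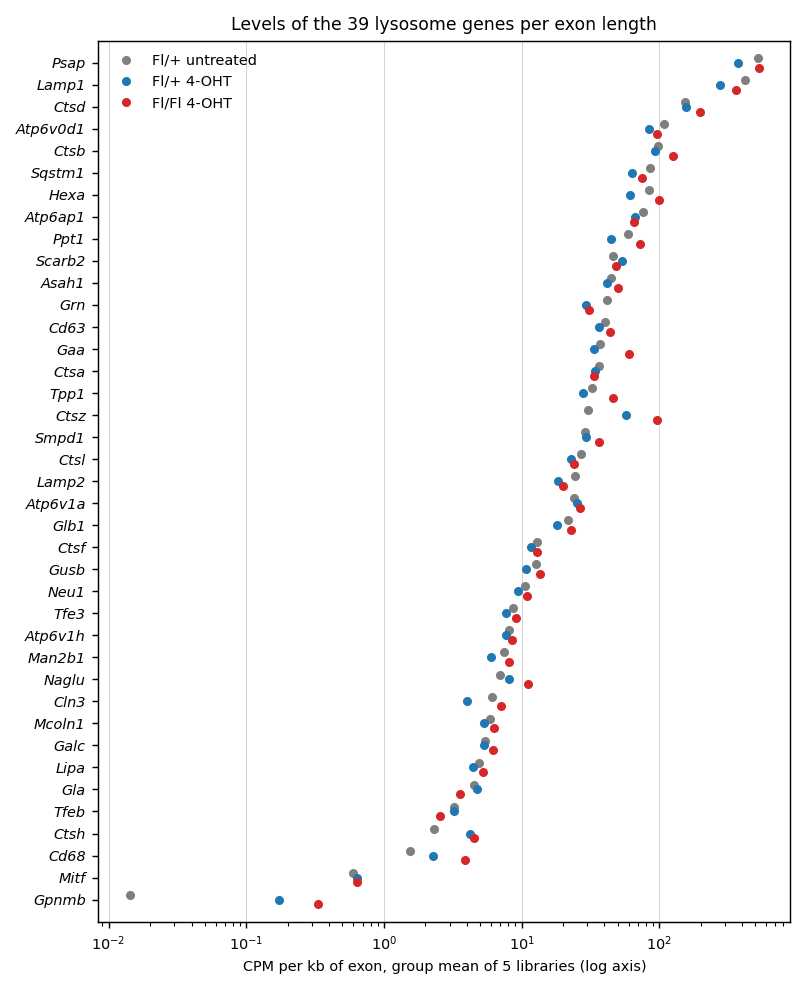
Mean level of each of the 39 lysosome genes per kilobase of exon (log axis) in 5 untreated Fl/+, 5 treated Fl/+ and 5 treated Fl/Fl cultures, ordered by the untreated level. Psap and Lamp1 lie at the top and Gpnmb at the bottom, and Ctsz, Cd68 and Gpnmb are spread widest between the groups.

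Trrap deletion was examined by comparing the Fl/Fl with the Fl/+ cultures, both after 4-OHT. 17 of the 39 lysosome genes (43.6%) changed, 16 of them higher and 1 lower. Of all 15036 genes tested 31.7% were called, 16.8% higher and 15.0% lower. The rises were spread over enzymes and membrane proteins. Gaa, Cln3, Cd68, Ctsz, Tpp1, Ppt1, Hexa and Psap had the largest, between 0.53 and 0.86 on the log2 scale, and Gla was lower. The median of the 39 genes was 0.27 against 0.02 for all genes tested, and 35 had a positive value. Without the libraries labelled Fl/Fl 29 and Fl/Fl 39 and the treated library of mouse 36, 7 genes (17.9%) were called. All genes were then called at 15.5%, a share near that of the lysosome genes. The 7 genes were Ctsz, Tpp1, Hexa, Gaa, Psap, Ppt1 and Cln3, all higher, and the median of the 39 genes was 0.28. With 1 library left out in turn, which gave 10 fits, Gla stayed called in 4 of them, Galc and Mcoln1 in 5, Asah1 in 3, Atp6v0d1 in 2, and Gusb and Tfe3 in 9, both lost without the treated Fl/+ library of mouse 19. In bulk RNA, fewer cells of a type and less RNA per cell cannot be told apart.

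Among the proteases, 2 of 8 rose, 25.0% called and below the 31.7% of all genes. Ctsz, the carboxypeptidase cathepsin Z, was at 71.0, 97.4, 79.0, 79.2 and 85.5 CPM in the treated Fl/+ cultures and at 129.8, 136, 135, 174 and 121 CPM in the Fl/Fl cultures. Every Fl/Fl library lay above every treated Fl/+ library. The difference was 0.77 ± 0.11, with an adjusted p of 0.000608. Tpp1, the tripeptidyl peptidase lost in a childhood form of neuronal ceroid lipofuscinosis, was at 135, 153, 160.3, 138 and 134 CPM against 211, 227, 259.9, 268 and 233 CPM. The groups did not overlap, and Tpp1 rose by 0.75 ± 0.09 (adjusted p = 0.00022). The other proteases did not pass the test, with 0.45 for Ctsb, 0.35 for Ctsd, 0.15 for Ctsf, 0.12 for Ctsh, 0.09 for Ctsl and -0.02 for Ctsa. Ctsb and Ctsd were highest in the library of mouse 37, and their SD over the Fl/Fl cultures, 255 CPM and 157 CPM, was well above that of the treated Fl/+ cultures, 61.6 CPM and 23.1 CPM. Without mouse 37 the values were 0.22 for Ctsb, 0.12 for Ctsd, 0.06 for Ctsf, -0.21 for Ctsh, -0.10 for Ctsl and -0.08 for Ctsa.

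Of the 9 glycosidases, 5 rose and 1 fell, 66.7% called beside 31.7% of all genes. Only Hexa and Gaa stayed called without the libraries in doubt. Gaa, the acid glucosidase that degrades glycogen, was at 138, 192, 210.1, 150.0 and 119 CPM in treated Fl/+ and 257, 264, 306, 341 and 285 CPM in Fl/Fl cultures. The lowest Fl/Fl library exceeded the highest Fl/+ one, and the rise of 0.86 ± 0.15 was the largest called among the 39 genes (adjusted p = 0.00208). Hexa, the alpha subunit of the hexosaminidase that cleaves GM2 ganglioside, was at 114, 99.6, 150.2, 129 and 116 CPM against 182, 199, 199, 209 and 201 CPM. Again the groups were apart, and the difference was 0.72 ± 0.10 (adjusted p = 0.000601). Man2b1, a lysosomal mannosidase, rose by 0.45 ± 0.09, Gusb, the beta-glucuronidase, by 0.36 ± 0.10, and Galc, which removes galactose from myelin lipids, by 0.25 ± 0.08. Gla, the alpha-galactosidase, fell by 0.41 ± 0.13 (adjusted p = 0.0288), from a mean of 15.6 ± 1.25 CPM to 11.6 ± 2.02 CPM (SD, n = 5). Glb1 (0.35), Naglu (0.47) and Neu1 (0.22) did not pass, and Neu1 was at 0.14 without mouse 37.

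Of the lipid hydrolases and saposins, 3 of 5 rose, 60.0% beside 31.7% of all genes called. Psap and Ppt1 stayed called without the libraries in doubt. Ppt1, the palmitoyl thioesterase, was at 165, 144, 152, 185 and 169 CPM in treated Fl/+ and 238, 254, 256, 312 and 275 CPM in Fl/Fl cultures. The groups did not overlap and the rise was 0.73 ± 0.09 (adjusted p = 0.000289). Psap was at 894, 1159, 1155, 987 and 908 CPM against 1312, 1437, 1489, 1666 and 1381 CPM, with each Fl/Fl library above each Fl/+ one. Its rise was 0.53 ± 0.11 (adjusted p = 0.00373). Asah1, the acid ceramidase, rose by 0.27 ± 0.08, whereas Smpd1, the acid sphingomyelinase, at 0.34 and Lipa, the acid lipase, at 0.25 did not pass.

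Of the 7 membrane proteins and channels, 4 rose, 57.1% beside 31.7% of all genes called. Only Cln3 stayed called without the libraries in doubt. Cln3, a lysosomal transmembrane protein mutated in juvenile neuronal ceroid lipofuscinosis, was at 21.3, 22.4, 29.5, 24.1 and 19.4 CPM in treated Fl/+ and 37.0, 38.1, 42.7, 43.8 and 42.4 CPM in Fl/Fl cultures. The Fl/Fl libraries were all higher, and the rise was 0.82 ± 0.11 (adjusted p = 0.000519). Cd68 was low throughout, at 3.45, 2.31, 2.96, 2.91 and 2.72 CPM against 3.20, 3.77, 5.41, 6.998 and 5.17 CPM, and the Fl/Fl library of mouse 27 lay below the treated Fl/+ library of mouse 19. It rose by 0.79 ± 0.22 (adjusted p = 0.0185). Lamp1 was at 697, 701, 799, 763 and 761 CPM against 892, 887, 955, 1162 and 969 CPM, without overlap, and rose by 0.40 ± 0.09 (adjusted p = 0.006). Mcoln1, the calcium channel TRPML1, rose by 0.27 ± 0.08. Lamp2 (0.14), the tetraspanin Cd63 (0.28) and the glucocerebrosidase receptor Scarb2 (-0.12) did not pass. Without mouse 37 Lamp2 was at -0.03, Cd63 at 0.12 and Scarb2 at -0.26, the last with an adjusted p of 0.0467.

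Among the remaining genes, the pump subunit Atp6v0d1 rose slightly, by 0.22 ± 0.07 (adjusted p = 0.0325), and Atp6v1h (0.17), Atp6v1a (0.09) and the accessory subunit Atp6ap1 (0.0042) did not pass. Sqstm1, which carries ubiquitinated cargo into autophagosomes, was at 0.24, Grn at 0.08 and Gpnmb at 0.95 ± 0.48, none of them called. Without mouse 37 Sqstm1 was at 0.15, Grn at -0.0019, Gpnmb at 0.54, Atp6v1h at 0.06, Atp6v1a at 0.05, Atp6ap1 at -0.11 and Mitf at -0.21. Gpnmb was at 0.466, 2.89, 2.06, 4.29 and 1.11 CPM in the 5 Fl/Fl libraries, and mouse 27 lay below all treated Fl/+ libraries. Of the regulators, Tfe3 was at 67.5, 71.8, 80.6, 68.2 and 69.3 CPM in treated Fl/+ and 86.7, 80.7, 84.8, 80.4 and 90.6 CPM in Fl/Fl cultures. The lowest Fl/Fl library lay just below the highest Fl/+ one, and Tfe3 rose by 0.26 ± 0.07 (adjusted p = 0.0152). Tfeb was at 15.3, 19.5, 21.4, 16.3 and 18.5 CPM against 11.7, 13.0, 15.3, 20.1 and 11.9 CPM, below the treated Fl/+ mean in 4 of the 5 Fl/Fl libraries but not in that of mouse 37. Its value was -0.32 ± 0.16 (adjusted p = 0.148), and without mouse 37 it was -0.49 (adjusted p = 0.0204), past the threshold. Mitf, at 2.94, 4.37, 3.24, 4.16 and 5.15 CPM against 2.89, 3.67, 4.03, 6.03 and 3.13 CPM, had a value of 0.0044 ± 0.23 (SE), and the groups overlapped.

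**Figure D2:**
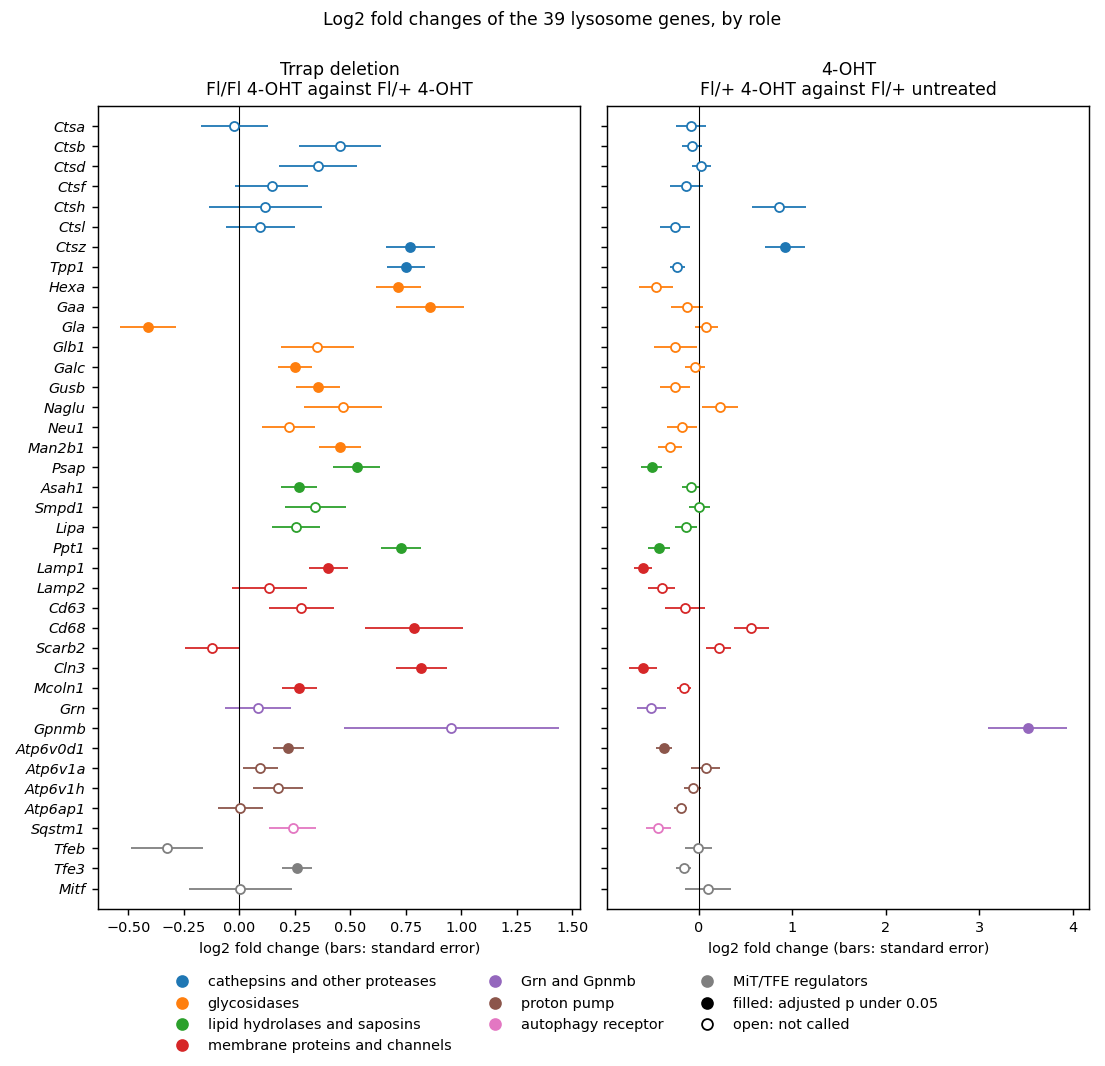
Log2 fold change with SE of each of the 39 lysosome genes after Trrap deletion (left) and after 4-OHT (right), coloured by role, filled where the adjusted p is under 0.05 (n = 5 per group). On the left 16 filled points lie above 0 and only Gla below, and on the right 5 filled points lie below 0 and Ctsz and Gpnmb above.

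The 4-OHT treatment itself was examined by comparing treated with untreated Fl/+ cultures of the same 5 mice. 7 of the 39 genes (17.9%) changed, 2 higher and 5 lower. Of all 14821 genes tested 13.8% were called, 7.34% higher and 6.45% lower. Gpnmb and Ctsz rose, and Lamp1, Cln3, Psap, Ppt1 and Atp6v0d1 fell. With the mouse as a block, 14 genes (35.9%) were called, 3 higher and 11 lower. Of all genes 25.7% were called in that fit, 13.8% higher and 11.9% lower. The block added Ctsh among the rises and Tpp1, Hexa, Man2b1, Lamp2, Grn and Sqstm1 among the falls. The median of the 39 genes was -0.14 against -0.01 for all genes tested. 17 genes were lower after 4-OHT in all 5 mice and 3 were higher in all 5. The share of all genes with the same sign in all 5 mice is not given here. Without both libraries of mouse 36, 7 genes (17.9%) were again called, against 10.8% of all genes. Grn and Sqstm1 then stood in place of Psap and Ppt1. A single copy of Trrap can be lost in these cultures too, so 4-OHT and the loss of 1 copy cannot be told apart.

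Gpnmb was nearly absent before treatment, at 0.0362, 0.105, 0.210, 0.0770 and 0.0368 CPM, or 13 counts over 5 libraries, and stood at 1.52, 0.791, 0.869, 0.971 and 1.45 CPM after it, or 161 counts. All treated libraries were higher. Scaled by the summed TMM-adjusted library sizes of the groups, the ratio of these counts was 11.9. Its exact 95% interval of 6.76 to 22.8 covers counting error only. The adjusted p of edgeR was 0.000786, but Gpnmb passed the count filter only through the treated libraries, where it is high. This p-value is therefore not taken as support. Ctsz was at 34.1, 57.2, 35.5, 28.0 and 62.8 CPM before and 71.0, 97.4, 79.0, 79.2 and 85.5 CPM after 4-OHT. It was higher in 5 of 5 mice without overlap of the groups, and rose by 0.92 ± 0.21 (adjusted p = 0.0153). Ctsh, an aminopeptidase cathepsin, was also higher in 5 of 5 mice, at 0.86 ± 0.29, with an adjusted p of 0.074 that became 0.00656 with the block.

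Lamp1 was at 1145, 964, 1232, 1253 and 1049 CPM before treatment and 697, 701, 799, 763 and 761 CPM after, lower in 5 of 5 mice. The groups did not overlap, and it fell by 0.60 ± 0.10 (adjusted p = 0.00283). Cln3 went from 40.4, 38.9, 38.9, 31.8 and 26.4 CPM to 21.3, 22.4, 29.5, 24.1 and 19.4 CPM, where mouse 36 untreated lay below mouse 26 treated. It fell by 0.59 ± 0.15 (adjusted p = 0.0224). Psap, at 1339.8, 1348, 1408, 1688 and 1441 CPM before and 894, 1159, 1155, 987 and 908 CPM after, fell by 0.50 ± 0.11 without overlap (adjusted p = 0.0138). Ppt1, at 195, 178, 225, 275 and 221 CPM before treatment, fell by 0.42 ± 0.12 (adjusted p = 0.0381), and the lowest untreated library lay below the highest treated one. With 1 library left out, Ppt1 stayed called in 3 of 10 fits and Cln3 in 5. Atp6v0d1 was at 203, 207, 216, 178 and 174 CPM before, 151, 145, 169, 144 and 147 CPM after and 165, 169.6, 171, 194 and 172 CPM in the Fl/Fl cultures. The untreated libraries were all above the treated Fl/+ ones, and it fell by 0.37 ± 0.08 (adjusted p = 0.0162).

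Of the 9 glycosidases, edgeR called 0 without the block, with 2 at an unadjusted p under 0.05 and 0 called by DESeq2. Hexa, at 236, 118, 197, 154 and 134 CPM before treatment, had a value of -0.46 ± 0.18 (adjusted p = 0.123, 0.039 with the block). Man2b1 was at -0.31, Gusb at -0.26, Glb1 at -0.25, Neu1 at -0.18, Gaa at -0.12, Galc at -0.04, Gla at 0.08 and Naglu at 0.23. Gaa and Tpp1, at 169, 198, 209, 180.4 and 126 CPM and 169, 174, 176, 171 and 153 CPM before treatment, overlapped with the treated Fl/+ libraries. Tpp1 had a value of -0.23, Ctsl of -0.25, Ctsf of -0.13, Ctsa of -0.08, Ctsb of -0.07 and Ctsd of 0.03. Asah1 (-0.09), Lipa (-0.14) and Smpd1 (0.0077) were not called. Cd68, at 1.63, 2.44, 2.13, 1.92 and 1.58 CPM untreated, was higher in 4 of 5 mice at 0.56 ± 0.19, which did not pass (adjusted p = 0.0721). Among the membrane proteins Lamp2 was at -0.40, Mcoln1 at -0.16, Cd63 at -0.15 and Scarb2 at 0.21. Grn, at -0.51, and Sqstm1, at -0.43, were lower in 5 of 5 mice and just missed the threshold without the block (adjusted p = 0.0523 and 0.0573). The pump subunits Atp6ap1 (-0.19), Atp6v1h (-0.06) and Atp6v1a (0.07) did not pass.

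Of the 3 regulators, edgeR and DESeq2 each called 0 with 4-OHT, and 0 had an unadjusted p under 0.05. Tfeb was at 20.8, 18.8, 21.4, 14.8 and 15.5 CPM before treatment with a value of -0.0029 ± 0.14 (SE). Tfe3 was at 81.0, 79.9, 90.0, 76.2 and 72.8 CPM and lower after treatment in 5 of 5 mice, at -0.16 ± 0.08 (adjusted p = 0.214). Mitf was at 2.32, 3.45, 3.04, 5.16 and 4.602 CPM, with a value of 0.10 ± 0.25.

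**Figure D3:**
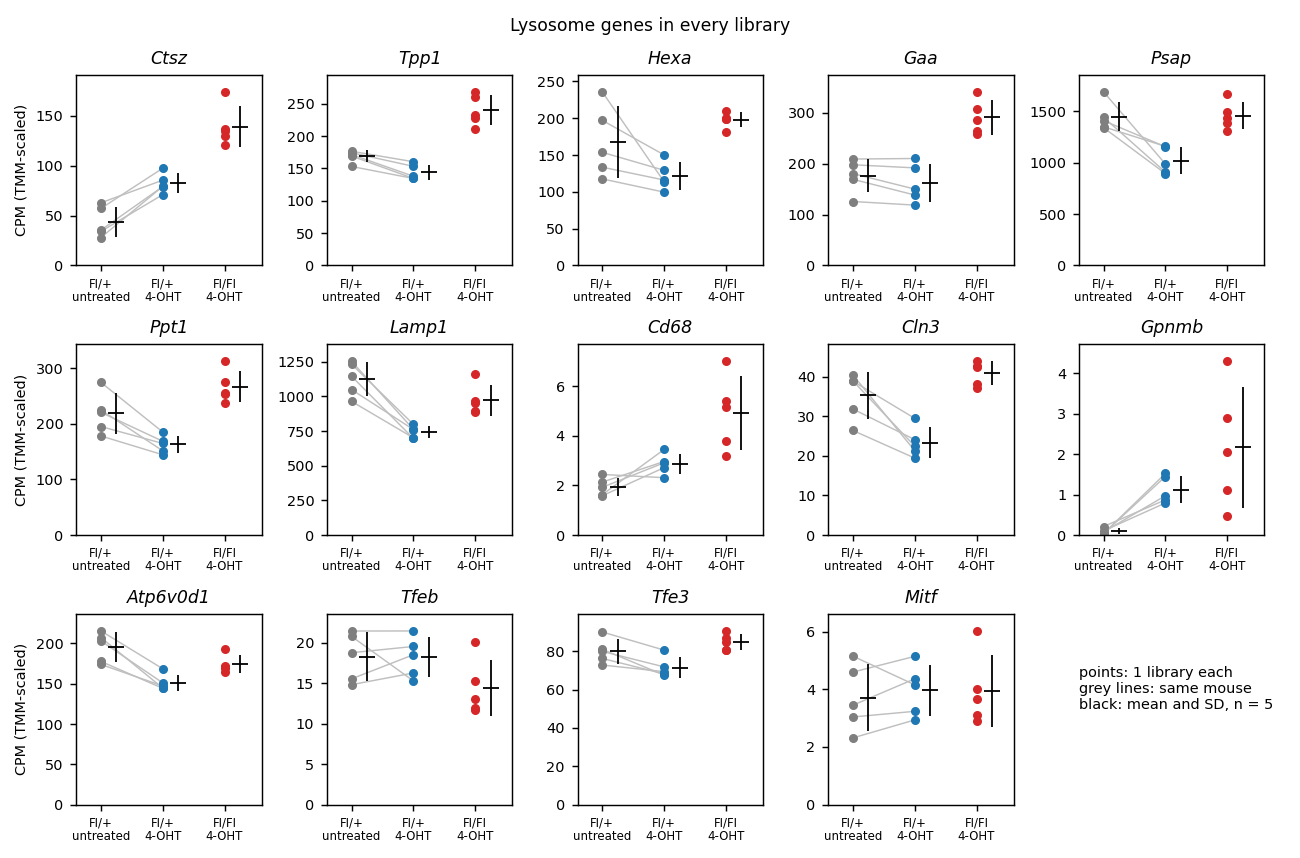
CPM of 14 lysosome genes in every library, with grey lines joining cultures of the same mouse and black marks for the mean and SD (n = 5). Ctsz climbs from group to group, Psap, Ppt1, Lamp1, Cln3 and Atp6v0d1 are lowest in the treated Fl/+ cultures, and Tpp1 and Gaa are highest in the Fl/Fl cultures.

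Both comparisons contain the same treated Fl/+ libraries, so a low or high value there moves them in opposite directions, and the comparison of Fl/Fl with untreated Fl/+ cultures was set beside them. 8 of the 39 genes (20.5%) changed there, 7 higher and 1 lower, a share below that of all genes. Of all 15032 genes tested 30.7% were called, 15.7% higher and 15.1% lower. The genes that rose were Gpnmb (4.47 ± 0.67), Ctsz (1.69 ± 0.22), Cd68 (1.35 ± 0.24), Gaa (0.73 ± 0.14), Naglu (0.69 ± 0.18), Tpp1 (0.52 ± 0.09) and Smpd1 (0.35 ± 0.11), and Grn fell by 0.42 ± 0.14. Naglu, which degrades heparan sulphate, Smpd1 and Grn passed here and in neither of the other comparisons in edgeR's fit of all their libraries with TMM and no covariate or block. Other fits called them there, DESeq2 for example Naglu after deletion (adjusted p = 0.0462) and Grn with 4-OHT (adjusted p = 0.0252), and scaling by library total Smpd1 after deletion (adjusted p = 0.0425). Whether their changes differ between comparisons was not tested. With 1 library left out, Smpd1 stayed called in 4 of 10 fits and Grn in 3. The Fl/Fl counts of Gpnmb were 306 in all, and scaled in the same way they were 22.1 times those of the untreated cultures. The exact 95% counting interval was 12.8 to 42.1. Here Gpnmb passed the count filter only through the Fl/Fl libraries, and its call is not taken as support. Psap (0.03), Cln3 (0.22), Lamp1 (-0.20), Ppt1 (0.30), Atp6v0d1 (-0.15) and Hexa (0.25) were not called. The mean of Psap was 1445 ± 142 CPM untreated, 1020.5 ± 129 CPM in treated Fl/+ and 1457 ± 134 CPM in Fl/Fl cultures (SD, n = 5). The mean of Cln3 was 35.3 ± 5.99, 23.3 ± 3.82 and 40.8 ± 3.03 CPM in the same order. Ctsz stood at 43.5 ± 15.4, 82.4 ± 9.84 and 139 ± 20.4 CPM, so that its Fl/Fl level was above both other groups. The median over the 39 genes was 0.11 against 0.0025 for all genes. Without the libraries in doubt 6 genes (15.4%) were called, below the 18.7% of all genes. Without Fl/Fl mouse 37 10 genes (25.6%) were called, against 26.5% of all genes. Of the 10, 6 were higher and 4 lower (Lamp2, Grn, Atp6ap1 and Tfeb). With scaling by library total 11 were called, all higher.

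**Figure D4:**
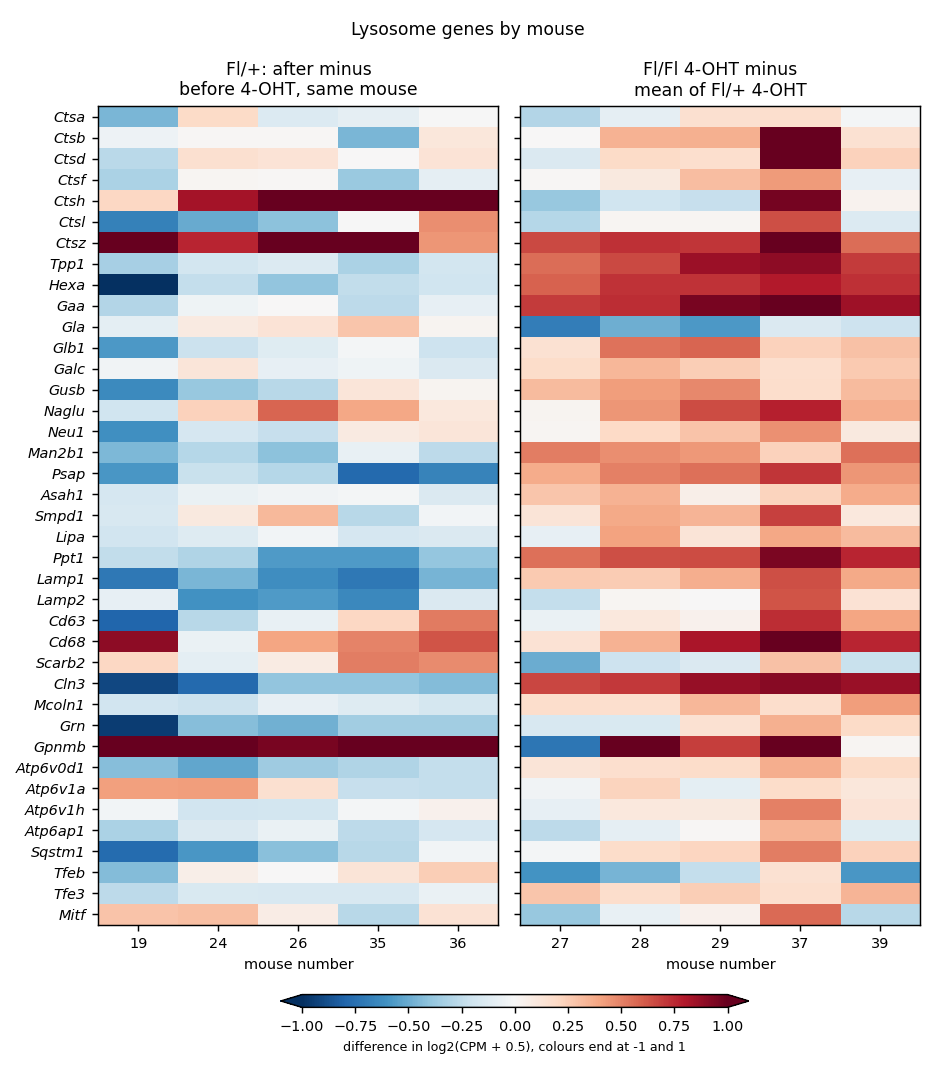
Difference in log2(CPM + 0.5) for each of the 39 lysosome genes, after minus before 4-OHT in each Fl/+ mouse (left) and each Fl/Fl library minus the mean of the treated Fl/+ libraries (right), with colours ending at -1 and 1. The columns of Fl/Fl mice 27 and 37 stand apart, with medians of 0.02 and 0.51, while Ctsz, Tpp1, Hexa, Gaa, Ppt1 and Cln3 are higher in all 5 Fl/Fl columns.

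The Fl/Fl libraries differed among themselves in these genes. The median difference from the treated Fl/+ mean was 0.02 for mouse 27, 0.22 for mouse 28, 0.25 for mouse 29, 0.51 for mouse 37 and 0.23 for mouse 39. In mouse 27, 22 of the 39 genes were higher and 17 lower, and in mouse 37, 38 were higher and 1 lower. 21 genes were higher in all 5 Fl/Fl libraries and Gla was lower in all 5. The share of all genes that did so is not given here. Leaving out mouse 37 gave 18 called genes (46.2%), against 29.2% of all genes. Of the 18, 15 were higher and 3 lower, where Tfeb and Scarb2 joined Gla among the falls. Leaving out the treated Fl/+ library of mouse 19 gave 10 called genes (25.6%), the fewest of any single library, and all genes were then called at 24.8%, a share near that of the lysosome genes. Among the Fl/+ mice, the median change after 4-OHT ran from -0.27 in mouse 19 to -0.07 in mouse 36, and more genes were lower than higher in each of the 5.

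Markers of cells rich in lysosomes were looked at beside these results. Of 17 markers of microglia and macrophages, Tyrobp, Trem2, C1qa, C1qb and C1qc were at 0 in every library, and 16 stayed under 1 CPM everywhere. Their sum was 0.384 to 1.31 CPM untreated, 0.277 to 0.879 CPM in treated Fl/+ and 1.08 to 2.47 CPM in Fl/Fl cultures. Cd68 and Gpnmb also had their highest means in Fl/Fl cultures. Not all microglial markers went this way. Laptm5 had a mean of 0.186 CPM in treated Fl/+ and 0.0875 CPM in Fl/Fl cultures, and Fcer1g of 0.101 and 0.0993 CPM. Ctss, a cathepsin typical of phagocytes, was listed at 0 throughout. Of 10 oligodendrocyte markers none was at 0 in every library, and their sum was 216 to 713 CPM untreated, 570.4 to 1135 CPM in treated Fl/+ and 696 to 2903 CPM in Fl/Fl cultures, highest in mouse 37. 6 of the 9 tested rose with 4-OHT, such as Mbp (2.86 ± 0.69) and Mobp (2.86 ± 0.46), and Mobp rose again after Trrap deletion (1.78 ± 0.45). The astrocyte sum was 5898 to 7862, 5689 to 7078 and 5329 to 9033 CPM in the 3 groups, the neuron sum 874 to 1167, 864 to 1054 and 613 to 851 CPM, and the sum over endothelial and fibroblast markers 1.4998 to 2.97, 2.12 to 3.81 and 2.06 to 3.89 CPM. Single markers within these sums went in different directions. With 4-OHT the astrocyte marker Gfap rose (3.25 ± 0.85), while S100b (-1.91 ± 0.45), Slc1a3 (-0.70 ± 0.15) and Aldoc (-0.74 ± 0.13) fell, and after deletion Aldoc rose (0.38 ± 0.08). The neuron markers Dcx (-2.51 ± 0.41) and Tubb3 (-1.04 ± 0.33) fell after deletion. Among the 10 stem cell markers Sox2 (-0.33 ± 0.10), Fabp7 (-0.61 ± 0.13) and Hes5 (-1.005 ± 0.28) were lower with deletion. Between Fl/Fl and untreated cultures 8 of 9 oligodendrocyte markers rose, and 5 of 7 neuron and 5 of 10 stem cell markers fell. Of 7 astrocyte markers 1 rose and 3 fell there. With the libraries in doubt left out, 5 oligodendrocyte markers and 1 astrocyte marker rose, and 3 neuron and 4 stem cell markers fell. Without the libraries in doubt 2 microglial markers were tested after deletion. The receptor Csf1r was called higher by edgeR (2.37, adjusted p = 0.0244). Csf1r passed the count filter in that fit only through the Fl/Fl libraries, where it is high. This call is therefore not taken as support. Over all libraries Csf1r was below the count filter, at 0.0338 to 0.173 CPM in treated Fl/+ and 0.197 to 0.868 CPM in Fl/Fl cultures. These groups did not overlap, but the untreated cultures, at 0 to 0.368 CPM, overlapped the Fl/Fl ones. P2ry12, the other marker tested, was not called (1.32 over all libraries and 0.93 without those in doubt). Among the other classes Mobp and Aldoc were still called higher and Dcx lower after deletion, and 0 of the 10 stem cell markers were called, with 3 at an unadjusted p under 0.05. With 4-OHT 5 oligodendrocyte markers were then called higher, 3 astrocyte markers lower, and 1 stem cell marker higher and 3 lower. Mbp (2.00, adjusted p = 0.0549) and Gfap (2.58, adjusted p = 0.0931) were not called by edgeR in that fit. The part of these markers in the lysosomal values was not tested.

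Other genes of the pathway were described by 6 lists with 127 genes, set up by role, of which 121 were tested. In all, 46 rose and 8 fell after Trrap deletion, which is 44.6% called beside 31.7% of all genes (16.8% higher and 15.0% lower), with a median of 0.20. With 4-OHT 4 rose and 22 fell, 21.5% called beside 13.8% of all genes (7.34% higher and 6.45% lower). The median was -0.16. Between Fl/Fl and untreated cultures 22 rose and 11 fell, 27.3% called and below the 30.7% of all genes, with a median of 0.05. The medians there were 0.25 for hydrolases, 0.08 for membrane proteins and 0.06 for pump subunits. They were 0.09 for sorting, -0.13 for sensing and -0.03 for autophagy. Without the libraries in doubt 20 rose and 6 fell after deletion, 21.3% called beside 15.5% of all genes. With 4-OHT 4 then rose and 21 fell, 20.7% called beside 10.8%. Between Fl/Fl and untreated cultures 10 then rose and 10 fell, 16.5% called beside 18.7%. Among 27 tested hydrolases and activators outside the 39, 13 rose and 2 fell after Trrap deletion, with a median of 0.35. Ctso, a cysteine protease, rose by 0.99 ± 0.09, the sulphatases Sgsh and Arsb by 0.98 ± 0.13 and 0.79 ± 0.13. Npc2, which passes cholesterol out of the lysosome, fell by 0.66 ± 0.09, and the carboxypeptidase Scpep1 by 0.54 ± 0.11. Of 17 membrane proteins and transporters, 10 rose and none fell (median 0.30), led by Tmem192 (0.83 ± 0.12), Glmp (0.75 ± 0.12) and the sialic acid exporter Slc17a5 (0.60 ± 0.12). Of 15 further pump subunits, 9 rose and none fell (median 0.37), led by Atp6v1g2 (0.62 ± 0.17), Atp6v0a2 (0.60 ± 0.10) and Atp6v0b (0.57 ± 0.08).

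Over all libraries the sorting, sensing and autophagy lists were called at shares nearer to the 31.7% of all genes after Trrap deletion. Of 10 genes of enzyme sorting, 3 rose and 1 fell (40.0% called, median -0.02). Gnptg, a subunit of the enzyme that makes the mannose 6-phosphate tag, rose by 0.64 ± 0.08, the receptor M6pr by 0.56 ± 0.09 and the sulphatase activator Sumf1 by 0.51 ± 0.12, while Gnptab, which encodes the catalytic subunits of the tagging enzyme, fell by 0.25 ± 0.07. Of 23 genes of nutrient sensing, 3 rose and 3 fell, 26.1% called and below the share of all genes (median -0.00066). Nprl3 (0.56 ± 0.06), Lamtor1 (0.31 ± 0.08) and Lamtor4 (0.29 ± 0.08) were higher, and the folliculin partners Fnip2 (-0.96 ± 0.10) and Fnip1 (-0.32 ± 0.11) and the mTORC1 inhibitor Tsc1 (-0.37 ± 0.07) were lower. Of 29 autophagy genes, 8 rose and 2 fell, 34.5% called and close to the share of all genes (median 0.17). Stx17, the syntaxin of autophagosome fusion, rose by 0.49 ± 0.07, Gabarapl2 by 0.46 ± 0.14 and Atg12 by 0.45 ± 0.06, while Gabarap fell by 0.54 ± 0.11 and the kinase Ulk2 by 0.48 ± 0.07. With 1 library left out, the call after deletion held in 2 of 10 fits for Fnip1, 4 for Gnptab, 5 for Lamtor4, 6 for Gabarapl2 and 8 for Atp6v1g2, and in all 10 for the other genes named here from the lists. These 5 and Lamtor1 were not called without the libraries in doubt.

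With 4-OHT most genes of the lists were not called, 95 of 121, and the medians were negative except for the sorting list. Of the 27 hydrolases 11.1% were called, below the 13.8% of all genes. 1 rose, Galns (0.74 ± 0.12), and 2 fell, the GM2 activator Gm2a (-0.95 ± 0.22) and the dipeptidyl peptidase Dpp7 (-0.71 ± 0.13), and the median was -0.12. Of the membrane proteins 4 fell (median -0.20), including the cystine exporter Ctns (-0.56 ± 0.10), Slc17a5 (-0.49 ± 0.11) and Laptm4a (-0.39 ± 0.10). Of the pump subunits 4 fell (median -0.32), including Atp6v0b (-0.51 ± 0.10), Atp6v0e (-0.41 ± 0.10) and Atp6v1e1 (-0.36 ± 0.08). Of the sorting genes, Igf2r, the large mannose 6-phosphate receptor, rose by 0.95 ± 0.14 and Sort1 by 0.41 ± 0.11, while Gnptg fell by 0.50 ± 0.13 (median 0.06). Of the sensing genes Depdc5 rose by 0.32 ± 0.08 and 5 fell (median -0.07), led by Sesn3 (-0.52 ± 0.08), Lamtor4 (-0.44 ± 0.13) and Lamtor1 (-0.43 ± 0.10). Of the autophagy genes 6 fell and none rose (median -0.17), led by the receptors Optn (-0.50 ± 0.13) and Tax1bp1 (-0.40 ± 0.11) and by Atg3 (-0.40 ± 0.07). With 1 library left out, the call with 4-OHT held in 2 of 10 fits for Lamtor4, 3 for Tax1bp1, 4 for Laptm4a and Gnptg, 5 for Sort1 and 6 for Optn, and in all 10 for the others named. Gnptg and Optn were not called without mouse 36. With the mouse as a block, 36 genes of the lists fell and 10 rose, 38.0% called beside 25.7% of all genes. 7 hydrolases fell and 2 rose, 6 membrane proteins fell and 0 rose, 7 pump subunits fell and 1 rose, 1 sorting gene fell and 2 rose, 6 sensing genes fell and 2 rose, and 9 autophagy genes fell and 3 rose.

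**Figure D5:**
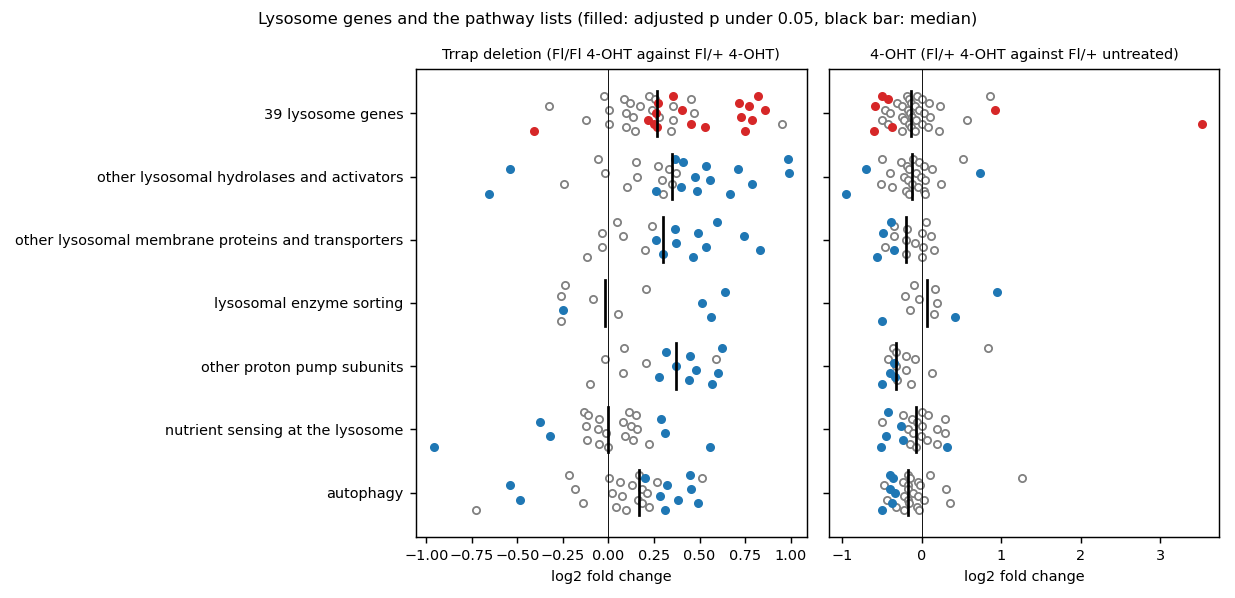
Log2 fold changes of the 39 lysosome genes and of 6 pathway lists after Trrap deletion (left) and after 4-OHT (right), with 1 point per gene, filled where the adjusted p is under 0.05, and a black bar at the median. The medians of hydrolases, membrane proteins and pump subunits lie between 0.30 and 0.37 on the left and between -0.32 and -0.12 on the right.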

How the data were processed

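RNA of 15 aNSC cultures, 5 per group, was sequenced as stranded mRNA libraries in 51-cycle single-end reads pooled over 3 lanes. Per the labels and the study's methods, reads were converted with bcl2fastq 1.8.4 and aligned with STAR 2.5.4b to GRCm38 with Ensembl annotation, and uniquely mapped reads were counted per gene and strand with featureCounts 1.5.0. The authors deposited these raw counts. Totals ran from 25720034 to 32187097, and at this depth genes under 1 CPM rest on few counts. 1 column of values that belongs to no sample was not used, and there were 0 rows without a gene.

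Each comparison was fitted on its own 10 libraries in edgeR 4.0.16 (R 4.3.3) by the quasi-likelihood test, with TMM scaling, genes of enough counts kept by filterByExpr (minimum count 10) and Benjamini-Hochberg adjustment over all genes tested. All 39 genes passed the filter in each comparison, but Gpnmb did so against untreated cultures only through the treated libraries. Called means an adjusted p under 0.05, and SE is the fold change divided by the square root of F. CPM values used TMM over all 15 libraries, and differences by mouse used log2(CPM + 0.5). Exon lengths came from the GENCODE annotation of GRCm38, and promoters from RefSeq.

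The members and lists were chosen with earlier results of these data known. All 39 genes are named. Values in every library are given for up to 8 called genes of largest change in each of the first 2 comparisons (8 after deletion and 7 with 4-OHT) and for the 3 regulators, and from each list up to 3 called genes per direction with at least 1 CPM are named. The mouse number pairs the Fl/+ libraries, since both cultures came from the same mouse. Deviations of same-mouse libraries from their group means correlated across 14821 genes at 0.153 for mouse 19, below its highest value with another mouse (0.218), and at 0.538 to 0.634 for the others, above theirs (0.0569 to 0.35). Alternatives were DESeq2 1.42.0, other scalings and filters, a fit of all libraries, labelled sex, the mouse block, each library left out, and, chosen after seeing the data, the libraries in doubt left out and the series of mouse numbers (19 to 29, or 35 to 39) as a covariate. The scripts were tested on simulated data. P-values measure the spread between cultures.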

Additional observations from a re-analysis of the deposited data

Results flagged for a closer look

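A single library far from the other 4 of its group was looked for in each of 117 sets of 5 values, 39 genes in 3 groups, and chance alone marks about 1 in 20 sets. 2 were found. Smpd1 stood at 87.5 CPM in the untreated library of mouse 36, against 97.6 to 101.3 CPM in the other untreated libraries. Atp6v0d1 stood at 193.7 CPM in the Fl/Fl library of mouse 37, against 165 to 172 CPM in the others of its group, and this library also held the highest oligodendrocyte sum.

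In 2 genes every mouse labelled male moved one way after 4-OHT and every mouse labelled female the other. The mean change of Ctsf was -0.26 in the 3 mice labelled male and 0.01 in the 2 labelled female, a difference of -0.27. The mean change of Smpd1 was -0.16 and 0.21, a difference of -0.37. These differences were not tested, and mouse 36, labelled male, held Xist beside a Y-linked gene.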

How the results depend on the processing

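No called lysosome gene changed sign under any setting run. Ctsz, Tpp1, Hexa, Gaa, Psap, Ppt1 and Cln3 were called after Trrap deletion under every setting. With 4-OHT these were Ctsz, Lamp1 and Atp6v0d1, and between Fl/Fl and untreated cultures Ctsz, Tpp1, Gaa and Cd68. Gpnmb was called in both comparisons with untreated cultures under every setting that tested it. It was not tested where at least 10 counts were required in every library. The 17 genes called after deletion became 7 without the libraries in doubt, which leaves 3 Fl/Fl and 4 Fl/+ libraries, and 10 to 19 with 1 library left out, the fewest without the treated Fl/+ library of mouse 19. The 7 called with 4-OHT became 14 with the replicate block, 13 with DESeq2, 13 with the series of mouse numbers, 12 with labelled sex and 5 to 9 with 1 library left out. The 8 called between Fl/Fl and untreated cultures became 6 to 10 with 1 library left out, where the split was 6 higher and 4 lower without Fl/Fl mouse 37, and 11, all higher, with library totals. The cause of these shifts was not tested, beyond the smaller number of libraries. The share of all genes called is not given here for DESeq2, library totals, labelled sex, the mouse series and most fits with 1 library left out. Those counts cannot be set against it. Scaling by library total shifted the median of all genes by 0.03 after deletion, 0.05 with 4-OHT and 0.09 between Fl/Fl and untreated cultures. Gpnmb, Cd68 and Mitf are limited most by depth.

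Genes with values near 0, none of them called, changed sign. After deletion Ctsa was 0.015 with library totals, Grn -0.045 without the libraries in doubt, Atp6ap1 -0.0097 with all 15 libraries, -0.0099 with DESeq2, -0.0020 without a filter and -0.0073 with size factors, and Mitf -0.0099, -0.012, -0.0013 and -0.0074 in the same order and -0.0048 with labelled sex. With 4-OHT Ctsd was -0.0013 without mouse 36, Galc 0.017 with library totals, and Smpd1 -0.0069 with the block, -0.00025 with the mouse series and -0.0073 with labelled sex. Tfeb was 0.012 with at least 10 counts in every library, 0.0024 with the block, 0.048 with library totals and 0.0098 with the mouse series. Between Fl/Fl and untreated cultures Ctsf was -0.00047 with all 15 libraries and -0.050 without the libraries in doubt, where Glb1 was -0.052, Gusb -0.023 and Neu1 -0.031.

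With 1 library left out, the values after deletion ran from -0.10 to 0.12 for Ctsa, -0.21 to 0.23 for Ctsh, -0.096 to 0.17 for Ctsl, -0.029 to 0.23 for Lamp2, -0.014 to 0.15 for Grn, -0.11 to 0.059 for Atp6ap1 and -0.21 to 0.099 for Mitf. With 4-OHT they ran from -0.030 to 0.096 for Ctsd, -0.083 to 0.027 for Galc, -0.074 to 0.068 for Smpd1, -0.29 to 0.070 for Cd63, -0.0048 to 0.20 for Atp6v1a, -0.073 to 0.066 for Tfeb and -0.032 to 0.25 for Mitf. Between Fl/Fl and untreated cultures they ran from -0.074 to 0.095 for Ctsf, -0.020 to 0.22 for Glb1, -0.0033 to 0.21 for Gusb, -0.049 to 0.12 for Neu1, -0.028 to 0.082 for Psap, -0.014 to 0.35 for Cd63, -0.040 to 0.19 for Scarb2 and -0.10 to 0.24 for Mitf.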
